A study of Mus musculus with 12 samples.

Results

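The genes described here are 10 factors that astrocytes are known to secrete or shed and that act on synapses: the thrombospondins Thbs1, Thbs2, Thbs3 and Thbs4, Sparc and its relative Sparcl1 (hevin), the glypicans Gpc4, Gpc5 and Gpc6, and the BMP antagonist Chrdl1. They were taken by gene symbol from a table of 45777 genes, and all 10 were found and passed the filter on low counts. The libraries are bulk RNA profiles of astrocytes that had been purified from mouse cortex by immunopanning and magnetic beads on postnatal day 14. AGR cKO ESD animals carried floxed alleles of Nr3c1, the glucocorticoid receptor gene, together with Aldh1l1-CreERT2, a recombinase under an astrocyte promoter that tamoxifen switches on, and were kept from the dam for 3 h a day from day 1 to day 14. AGR cKO control animals had the same alleles without the separation. Cre- ESD animals carried the floxed alleles without the transgene and were separated, and Cre- control animals had neither transgene nor separation. All 4 groups, the Cre- groups included, received 4-hydroxytamoxifen from day 5 to day 7, so the recombinase was activated after separation had begun. Each group has 3 libraries, 12 in all.

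Neurons grown without astrocytes form few synapses, and these secreted proteins are among the signals that astrocytes supply. Thrombospondins are large matrix glycoproteins that promote the formation of structural synapses through the neuronal receptor subunit encoded by Cacna2d1. Hevin promotes excitatory synapse formation by bridging neurexin and neuroligin across the cleft, and SPARC counteracts it. Glypicans 4 and 6 are heparan sulfate proteoglycans that bring AMPA receptors to the synapse, and chordin-like 1 drives the change in AMPA receptor composition that accompanies synapse maturation.

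Libraries held 42603546 to 52130081 gene counts, of which the 10 genes took 0.991% to 1.33%. Nr3c1, the targeted gene, stood at 84.3 ± 15.6 CPM in AGR cKO ESD, 101 ± 7.45 in AGR cKO control, 204 ± 5.23 in Cre- ESD and 220.4 ± 14.6 CPM in Cre- control libraries (counts scaled by library size, mean ± SD, n = 3 each). Its log2 fold change in AGR cKO was -1.28 ± 0.12 under ESD and -1.12 ± 0.12 in control animals (edgeR quasi-likelihood adjusted p = 0.00459 and 0.0167), and with 1 library left out it was called in 12 of 12 and 6 of 12 fits. The summed level of 10 astrocyte markers was 39199 to 54779 CPM across libraries, against 109 to 175 CPM for 12 neuronal markers. Summed markers of 12 endothelial genes stood at 264 to 524 CPM in AGR cKO ESD, 378 to 819 in AGR cKO control, 478 to 1217 in Cre- ESD and 390 to 2041 CPM in Cre- control libraries. Summed markers of 14 microglial genes were at 175 to 459 CPM in AGR cKO ESD, 209 to 478 in AGR cKO control, 516 to 867 in Cre- ESD and 373 to 1069 CPM in Cre- control libraries. AGR cKO ESD 1 had the lowest and Cre- control 1 the highest sum of both lists, and values without them are given where they moved a result. No marker of either list was at 0 in any library. Summed markers of 11 mural and fibroblast genes were higher than both. They stood at 1837 to 3944 CPM in AGR cKO ESD, 4896 to 5671 in AGR cKO control, 2776 to 5519 in Cre- ESD and 2796 to 5581 CPM in Cre- control libraries. Within AGR cKO, these sums did not overlap between ESD and control libraries.

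The 10 genes spanned a wide range of abundance. On the deposited TPM scale, which corrects for transcript length, Sparcl1 averaged 8599 TPM over the 12 libraries (range 7528 to 10043) and ranked 9 among all genes. Sparc came next at 1213 TPM (684 to 1822). Gpc5 averaged 256 TPM (194 to 319), Chrdl1 171 TPM (126 to 265) and Thbs4 100.1 TPM (54.7 to 132). Gpc6 averaged 75.3 TPM (64.1 to 85.0) and Gpc4 41.4 TPM (36.1 to 49.5). The other thrombospondins were the least abundant, with Thbs1 at 16.7 TPM (10.02 to 25.0), Thbs3 at 16.2 TPM (10.98 to 25.6) and Thbs2 at 9.23 TPM (6.32 to 14.8). Thbs4, known from the mature brain, was thus the most abundant thrombospondin in every library, and Thbs1 and Thbs2, known from immature astrocytes, stood below it.

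Some neighbours in this order were set apart in all libraries and others were not. The ranges of Sparcl1 and Sparc, Sparc and Gpc5, Gpc6 and Gpc4, and Gpc4 and Thbs1 did not overlap. Gpc5 exceeded Chrdl1 in 11 of 12 libraries, Chrdl1 exceeded Thbs4 in 11, Thbs4 exceeded Gpc6 in 10 and Thbs3 exceeded Thbs2 in 11, with overlapping ranges. Thbs1 exceeded Thbs3 in 7 of 12 libraries, which does not order them. Relative to their means, Thbs1 and Sparc varied most across the 12 libraries (coefficient of variation of TPM 27.7% and 27.6%) and Gpc4 least (8.99%). Sparcl1 overlaps the predicted gene LOC330143 (15.8 TPM) and Thbs3 overlaps LOC115489723 (3.03 TPM). The use of strand in counting is not given in the sources used here, so reads in the shared stretches could have gone to either gene.

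**Figure D1:**
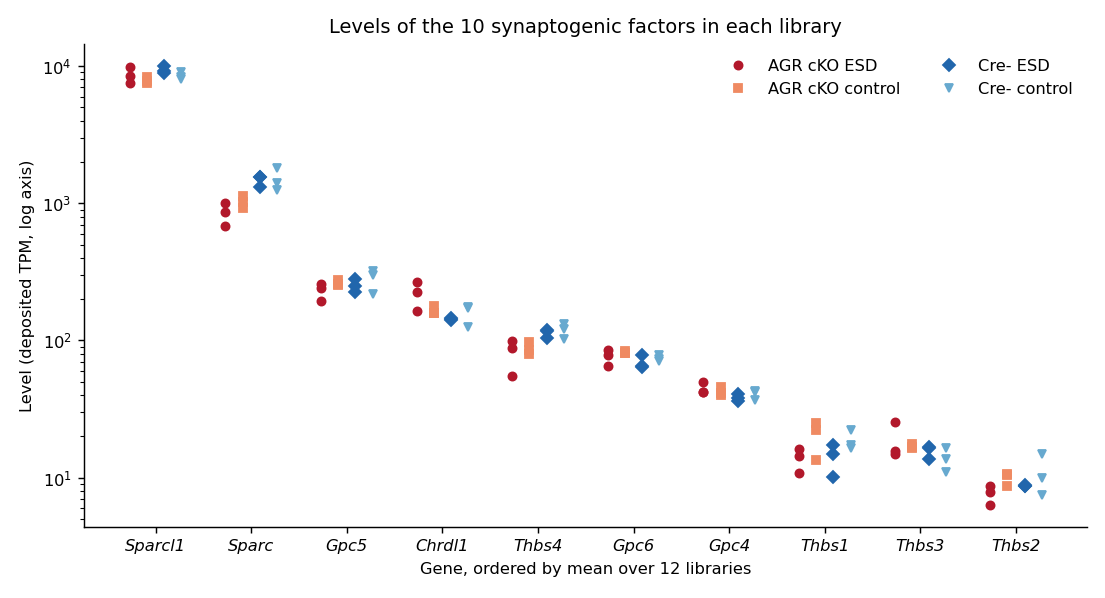
Deposited TPM of each of the 10 genes on a log axis, 1 point per library, with genes ordered by their mean over 12 libraries and the 4 groups offset from left to right as AGR cKO ESD, AGR cKO control, Cre- ESD and Cre- control. Sparcl1 lies between 7528 and 10043 TPM in all libraries, Thbs2 between 6.32 and 14.8 TPM, and the AGR cKO points of Sparc all lie below its Cre- points.

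Sparc was the member that changed with genotype. Sparc encodes a secreted matrix glycoprotein that binds collagen and counteracts the synaptogenic action of hevin. It stood at 618, 844 and 748 CPM in AGR cKO ESD libraries and at 793, 868 and 956 CPM in AGR cKO control libraries. The Cre- ESD libraries held 1340.4, 1153 and 1367 CPM, and the Cre- control libraries 1417, 1104 and 1198 CPM. Every AGR cKO library was below every Cre- library, so the genotypes did not overlap under either rearing condition. In bulk samples, fewer cells of a type and less RNA per cell cannot be told apart.

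Under ESD, Sparc fell in AGR cKO to 736 ± 114 CPM, against 1287 ± 117 CPM in Cre- (mean ± SD, n = 3 each), a fold of 0.572. The log2 fold change was -0.81 ± 0.14 (95% interval -1.10 to -0.51, edgeR quasi-likelihood adjusted p = 0.0307 over 19163 genes). In this comparison 1 of the 10 genes was called, and 1.04% of all genes tested were called (0.459% lower). In control animals Sparc stood at 872 ± 81.7 CPM in AGR cKO and 1239.9 ± 160 CPM in Cre-, a fold of 0.704. That log2 fold change of -0.51 ± 0.14 did not pass (interval -0.80 to -0.21, edgeR adjusted p = 0.253). DESeq2 called it (adjusted p = 0.0280), and over 25 alternative settings its adjusted p ran from 0.0280 to 0.812. In edgeR 0 of the 10 genes were called in control animals, where 0.0157% of all genes were, with 2 of 10 at an unadjusted p under 0.05 against 10.2% of all genes. Averaged over both conditions, the log2 fold change of Sparc was -0.66 ± 0.10 (interval -0.87 to -0.45, edgeR adjusted p = 0.00738). It was the 1 member called there, where 3.49% of all genes were called (1.94% lower). The genotype effect was not shown to differ between ESD and control animals, with an interaction of -0.30 ± 0.19 (interval -0.71 to 0.12, edgeR adjusted p = 0.999).

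The Sparc call under ESD depended on single libraries, whereas the call averaged over conditions did not. Under ESD the adjusted p was 0.0988 without AGR cKO ESD 1, 0.0599 without AGR cKO ESD 3, 0.0675 without AGR cKO control 2, 0.0833 without Cre- ESD 1 and 0.0780 without Cre- ESD 3. Sparc was called in 7 of 12 such fits, with log2 fold changes of -0.91 to -0.69. Averaged over conditions it was called in 12 of 12 fits, with log2 fold changes of -0.71 to -0.59. Without both Cre- control 1 and AGR cKO ESD 1, a setting chosen after seeing the data, the log2 fold change was -0.69 ± 0.11 under ESD (edgeR adjusted p = 0.0588) and -0.55 ± 0.08 over both conditions (edgeR adjusted p = 0.0172).

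Markers of other cells moved in the same direction as Sparc, which microglia, endothelial cells and fibroblasts are also known to express. Averaged over both conditions, all 14 microglial markers had a log2 fold change below 0 in AGR cKO, with a median of -1.06, 0 called and 14 at an unadjusted p under 0.05. All 12 endothelial markers were below 0, with a median of -1.04, 0 called and 10 at an unadjusted p under 0.05. Of all genes, 3.49% were called in this comparison and 20% had an unadjusted p under 0.05. The 11 markers of mural cells and fibroblasts had a median of -0.26 with 0 called, and the 10 astrocyte markers a median of -0.06 with Aqp4 higher and Aldoc lower. Within ESD the mural and fibroblast median was -0.44, with 0 of 11 above 0, against 0.06 in control animals. Under ESD 3 of these 11 were lower at an unadjusted p under 0.05, against 15.6% of all genes. The microglial and endothelial medians within ESD were -1.09 and -1.01. A covariate fit used, for each library, the mean of log2 CPM centred over the 12 libraries, taken over the microglial and over the endothelial markers. It held no term for mural cells and fibroblasts. With these covariates the log2 fold change of Sparc was -0.55 ± 0.15 under ESD (edgeR adjusted p = 0.301). Over both conditions it was -0.41 ± 0.13 (edgeR adjusted p = 0.395), and 0 of all genes were called in either comparison. Nr3c1 itself was not called under this setting (log2 fold change -1.18 under ESD and -1.09 over both conditions, edgeR adjusted p = 0.0928 and 0.0611). AGR cKO ESD 1, lowest in both marker sums, was also lowest in Sparc, and Cre- control 1, highest in both sums, was highest in Sparc. Other libraries did not keep this order. Cre- ESD 3 had an endothelial sum of 478 CPM with Sparc at 1367 CPM, and AGR cKO control 3 had 819 CPM with Sparc at 956 CPM. Cre- control 2 had an endothelial sum of 390 and a microglial sum of 373 CPM with Sparc at 1104 CPM. The part of these cells in the Sparc difference was not tested beyond these values.

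**Figure D2:**
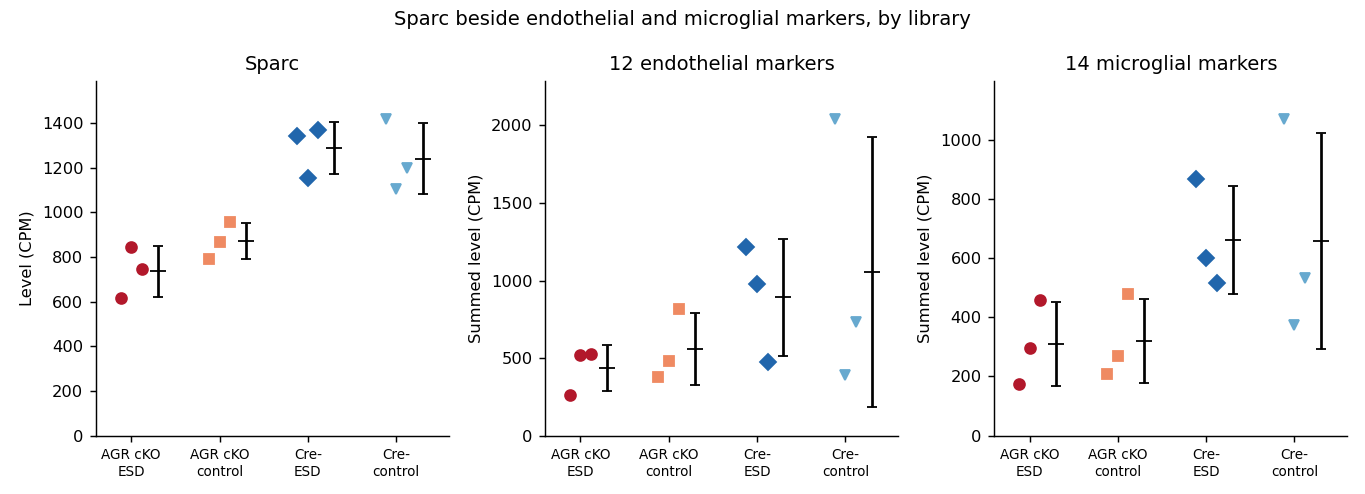
Sparc (left), the summed level of 12 endothelial markers (middle) and the summed level of 14 microglial markers (right) in CPM, 1 point per library, with the mean and SD of 3 libraries per group beside the points. Sparc is at or below 956 CPM in all 6 AGR cKO libraries and at or above 1104 CPM in all 6 Cre- libraries. The endothelial sums of the genotypes overlap under both conditions, and the microglial sums overlap in control but not in ESD libraries (175 to 459 CPM in AGR cKO ESD, 516 to 867 CPM in Cre- ESD).

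The stretch before the start of Sparc is shown because Sparc was the called member and the deleted gene encodes a DNA-binding receptor. RefSeq promoter sequences (build GRCm38.p6, the same coordinates as mm10) were available for 6 of the 10 genes. The 250 bases before the annotated start of Sparc, chr11:55420081-55420330 on the minus strand, read 5′ to 3′ as follows, with matches to the hexamer TGTTCT or its reverse complement AGAACA in capitals. The glucocorticoid receptor is known to bind a palindrome in which AGAACA is followed, after a spacer of 3 bases, by TGTTCT.
Sparc promoter: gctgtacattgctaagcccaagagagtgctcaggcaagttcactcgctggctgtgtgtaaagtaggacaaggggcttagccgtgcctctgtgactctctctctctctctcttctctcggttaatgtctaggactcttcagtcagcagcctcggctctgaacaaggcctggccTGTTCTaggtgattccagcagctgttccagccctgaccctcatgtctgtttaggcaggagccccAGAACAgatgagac
The 2 matches begin 78 and 14 bases before the start, and neither is part of a full palindrome. That start is the one of the Sparc transcripts NM_009242 and NM_001290817. The predicted Sparc transcript XM_030245730 has its 5′ end at 55410205, inside the gene, and the bases before it are not shown. The windows of Thbs2, Thbs3, Thbs4, Gpc4 and Gpc5 held 0 matches. Among 32817 mouse promoters of the same length, 16.08% held the hexamer on either strand and 0.009% the full palindrome. A match of letters is a description and does not show binding.

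Sparc lies on chromosome 11 (55394159 to 55420080, gene ID 20692) and has 3 annotated transcripts in the deposited table, each with a lower mean in AGR cKO. The transcript NM_009242, with 50.1% of the gene's TPM on average, stood at 442 ± 71.7 TPM in AGR cKO ESD, 527 ± 56.4 in AGR cKO control, 723 ± 79.2 in Cre- ESD and 689 ± 55.9 TPM in Cre- control libraries (mean ± SD, n = 3 each). The transcript NM_001290817, with 19.3% on average, stood at 169.5 ± 25.7 TPM in AGR cKO ESD, 201.1 ± 31.0 in AGR cKO control, 283 ± 45.8 in Cre- ESD and 265 ± 34.5 TPM in Cre- control libraries. The predicted transcript XM_030245730 was the most variable, at 240.01 ± 66.6 TPM in AGR cKO ESD, 299 ± 166 in AGR cKO control, 476 ± 190.2 in Cre- ESD and 537 ± 229.8 TPM in Cre- control libraries. Its share of the gene averaged 30.7% of TPM and ran from 12.1% to 44.0% between libraries. These transcripts overlap, so their split is an estimate of the authors' quantification.

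The genes whose levels ran closest to Sparc across the 12 libraries were Tmcc3, Acacb and Atf3, by the root mean square difference of centred log2 CPM among the 11762 genes that averaged 5 CPM or more. The difference was 0.107 for Tmcc3, a coiled-coil membrane protein, 0.107 for Acacb, an acetyl-CoA carboxylase, and 0.130 for Atf3, a stress-induced transcription factor, against 0.370 for Sparc around its own mean. They were chosen for this likeness, so their genotype differences are a description.

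Sparcl1, the synaptogenic relative, did not pass in any comparison. It stood at 9516, 10379 and 8357 CPM in AGR cKO ESD libraries, 7909, 8555 and 9080 CPM in AGR cKO control, 11252, 10117 and 9931 CPM in Cre- ESD and 8457, 10115 and 8729 CPM in Cre- control libraries. These values overlapped between genotypes under both conditions. Its genotype log2 fold change was -0.15 ± 0.13 under ESD (interval -0.43 to 0.13, edgeR adjusted p = 0.621) and -0.10 ± 0.13 in control animals (interval -0.38 to 0.18, edgeR adjusted p = 0.865). The ratio of Sparcl1 to Sparc in TPM was 7.36 to 12.3 in AGR cKO libraries and 4.55 to 7.21 in Cre- libraries, with no overlap of the genotypes. The ratio was formed after the Sparc values had been seen and is given without a test. A single transcript, NM_010097, held 92.6% of Sparcl1 TPM on average.

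**Figure D3:**
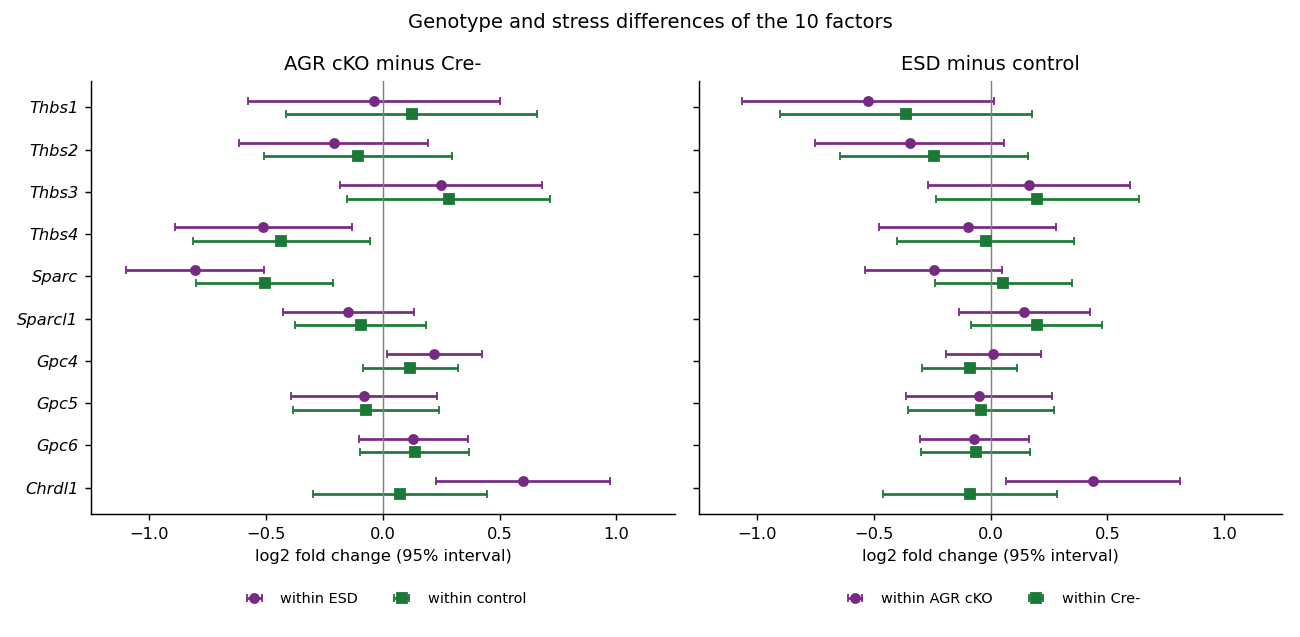
Log2 fold changes of the 10 genes with 95% intervals from the edgeR fit, for AGR cKO minus Cre- (left, within ESD and within control) and for ESD minus control (right, within AGR cKO and within Cre-). Sparc within ESD, at -0.81, is the only point whose adjusted p is under 0.05, and the Chrdl1 points within ESD (0.60) and within AGR cKO (0.44) are the farthest above 0.

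Among the thrombospondins, Thbs4 was lower in AGR cKO in all libraries without passing the correction. Thbs4, a matrix protein of the pentameric subgroup, stood at 63.3, 95.8 and 111 CPM in AGR cKO ESD libraries and 105, 89.0 and 95.4 CPM in AGR cKO control libraries. The Cre- ESD libraries held 135, 116 and 135 CPM, and the Cre- control libraries 125, 151 and 115 CPM. The highest AGR cKO library was below the lowest Cre- library, and AGR cKO ESD 1 was the lowest of all. The log2 fold change was -0.51 ± 0.17 under ESD, -0.44 ± 0.17 in control animals and -0.47 ± 0.12 over both conditions (edgeR adjusted p = 0.192, 0.417 and 0.0580). Over both conditions DESeq2 called it (adjusted p = 0.00583), as did edgeR without AGR cKO ESD 3 (adjusted p = 0.0318), and the adjusted p ran from 0.00583 to 0.947 over 24 alternative settings. Without AGR cKO ESD 1 the log2 fold change was -0.31 ± 0.13 under ESD and -0.37 ± 0.09 over both conditions (edgeR adjusted p = 0.383 and 0.0665). With the microglial and endothelial covariates the log2 fold change over both conditions was -0.14 (edgeR adjusted p = 0.947).

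The other thrombospondins showed no call for genotype. Thbs1, an activator of latent TGF-beta as well as a synaptogenic factor, averaged 28.2 ± 5.91 CPM in AGR cKO ESD, 40.6 ± 12.2 in AGR cKO control, 29.0 ± 7.71 in Cre- ESD and 37.3 ± 4.87 CPM in Cre- control libraries. Its genotype log2 fold change was -0.04 ± 0.25 under ESD and 0.12 ± 0.25 in control animals (edgeR adjusted p = 0.961 and 0.916). Thbs2, its close trimeric relative, averaged 15.8 ± 2.27 CPM in AGR cKO ESD, 20.1 ± 2.04 in AGR cKO control, 18.3 ± 0.299 in Cre- ESD and 21.6 ± 6.55 CPM in Cre- control libraries. Under ESD all 3 AGR cKO libraries of Thbs2 were below all 3 Cre- libraries, and the log2 fold change of -0.21 ± 0.19 was not called (edgeR adjusted p = 0.628). Thbs3 averaged 21.1 ± 6.02 CPM in AGR cKO ESD, 18.8 ± 0.151 in AGR cKO control, 17.8 ± 1.98 in Cre- ESD and 15.5 ± 3.61 CPM in Cre- control libraries. Its genotype log2 fold change was 0.25 ± 0.20 under ESD and 0.28 ± 0.20 in control animals (edgeR adjusted p = 0.590 and 0.676).

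Chrdl1 had the largest genotype difference above 0 under ESD, and it did not pass. Chrdl1 stood at 397, 228 and 330.1 CPM in AGR cKO ESD libraries, 219.6, 259 and 227 CPM in AGR cKO control, 212, 205 and 214 CPM in Cre- ESD and 238, 185 and 248 CPM in Cre- control libraries. AGR cKO ESD 1 and 3 were above all 10 other libraries, AGR cKO ESD 2 was within their range, and the 3 AGR cKO ESD libraries were above the 3 Cre- ESD libraries. The log2 fold change was 0.60 ± 0.17 under ESD (interval 0.23 to 0.97, edgeR adjusted p = 0.130) and 0.07 ± 0.17 in control animals (edgeR adjusted p = 0.930). Under ESD it was called by DESeq2 (adjusted p = 0.0268) and by edgeR without AGR cKO ESD 2 (adjusted p = 0.0407), and the adjusted p ran from 0.0268 to 0.558 over 25 alternative settings. Over both conditions the log2 fold change was 0.34 ± 0.12 (edgeR adjusted p = 0.146, and 0.0331 without AGR cKO ESD 2, within a range of 0.0331 to 0.868 over 24 settings). Without AGR cKO ESD 1 the log2 fold change was 0.41 ± 0.16 under ESD and 0.25 ± 0.11 over both conditions (edgeR adjusted p = 0.361 and 0.281). The difference between the genotype effects, an interaction of 0.53 ± 0.24, did not pass (interval -0.001 to 1.05, edgeR adjusted p = 0.999) and was 0.33 ± 0.22 without AGR cKO ESD 1.

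**Figure D4:**
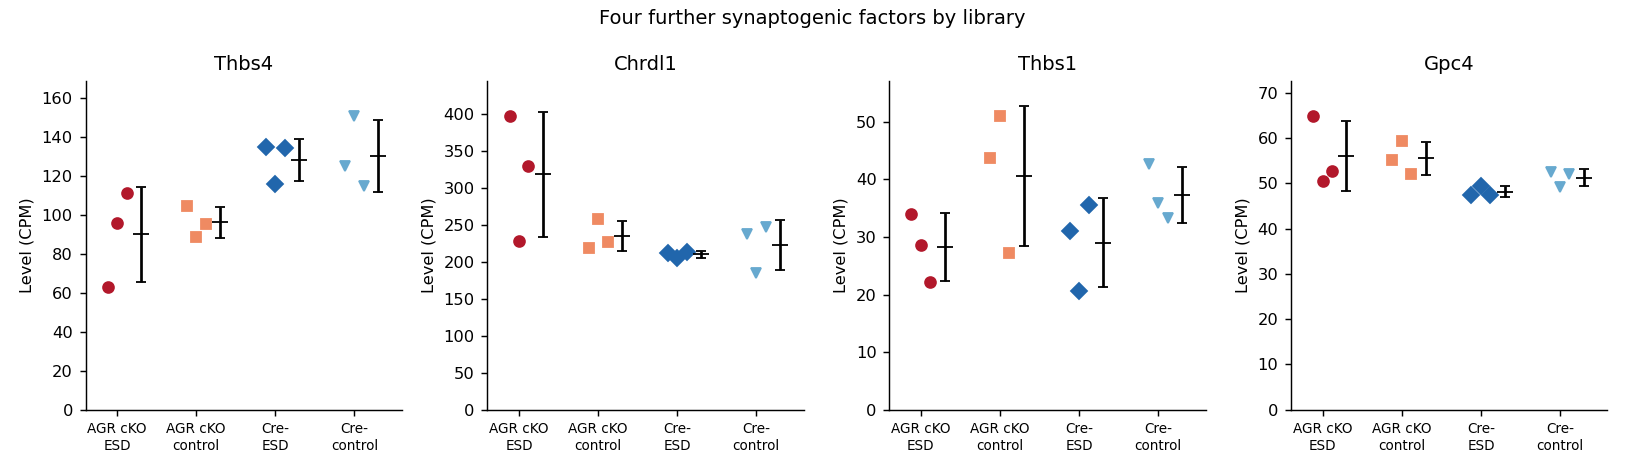
Thbs4, Chrdl1, Thbs1 and Gpc4 in CPM on axes that start at 0, 1 point per library, with the mean and SD of 3 libraries per group beside the points. Thbs4 is at or below 111 CPM in all 6 AGR cKO libraries and at or above 115 CPM in all 6 Cre- libraries, and the Chrdl1 mean of 319 CPM in AGR cKO ESD rests on libraries spread from 228 to 397 CPM.

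The glypicans differed little between groups. Gpc4, which brings AMPA receptors to synapses through the pentraxin Nptx1, stood at 64.8, 50.5 and 52.8 CPM in AGR cKO ESD libraries and 55.1, 59.4 and 52.1 CPM in AGR cKO control libraries. The Cre- ESD libraries held 47.4, 49.5 and 47.5 CPM and the Cre- control libraries 52.5, 49.1 and 52.1 CPM. The AGR cKO ESD libraries were all above the Cre- ESD libraries, and the log2 fold change of 0.22 ± 0.09 was not called (edgeR adjusted p = 0.285) and was 0.105 ± 0.077 without AGR cKO ESD 1. Gpc6, which acts on AMPA receptors like Gpc4, averaged 182 ± 27.0 CPM in AGR cKO ESD, 190.7 ± 0.261 in AGR cKO control, 166 ± 19.2 in Cre- ESD and 174 ± 0.660 CPM in Cre- control libraries. The control libraries of Gpc6 did not overlap between genotypes, with a log2 fold change of 0.14 ± 0.11 (edgeR adjusted p = 0.720) in a model whose spread is shared by all groups. Gpc5, a glypican abundant in astrocytes, averaged 293 ± 42.8 CPM in AGR cKO ESD, 304 ± 5.75 in AGR cKO control, 310.5 ± 23.1 in Cre- ESD and 319.7 ± 65.3 CPM in Cre- control libraries. Its genotype log2 fold change was -0.08 ± 0.14 under ESD and -0.07 ± 0.14 in control animals (edgeR adjusted p = 0.834 and 0.913).

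Across the 10 genes, 3 were lower and 2 higher without overlap in AGR cKO under ESD, where 9.64% of all genes were lower and 10.3% higher in this way. The lower ones were Thbs2, Thbs4 and Sparc and the higher ones Gpc4 and Chrdl1. In control animals 2 were lower (Thbs4 and Sparc) and 1 higher (Gpc6), against 8.39% and 8.54% of all genes. Over both conditions Thbs4 and Sparc had 6 AGR cKO libraries below 6 Cre- libraries, as had 1.4% of all genes. The opposite order was seen in 0 of the 10 and in 1.37% of all genes. An unadjusted p under 0.05 was reached by 4 of 10 genes under ESD and by 4 of 10 over both conditions, against 15.6% and 20% of all genes. The median genotype log2 fold change of the 10 was -0.06 under ESD and 0.00 in control animals, beside 0.00 and -0.01 over all genes.

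Gpc5 transcripts showed 1 library apart from the rest. In Cre- control 3, the transcript NM_175500 held 90.2% of Gpc5 TPM, against 21.7% to 38.8% in the other libraries, and the predicted transcript XM_017315745 held 3.12%. The gene's total of 319 TPM in that library was the highest of the 12 on the TPM scale, which depends on the split between transcripts. In CPM it was not the highest, at 336 CPM against 375 CPM in Cre- control 2 and 337 CPM in Cre- ESD 3. Thbs2 and Thbs4 each have a single annotated transcript, and NM_011821 held 85.5% of Gpc6 TPM on average.

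**Figure D5:**
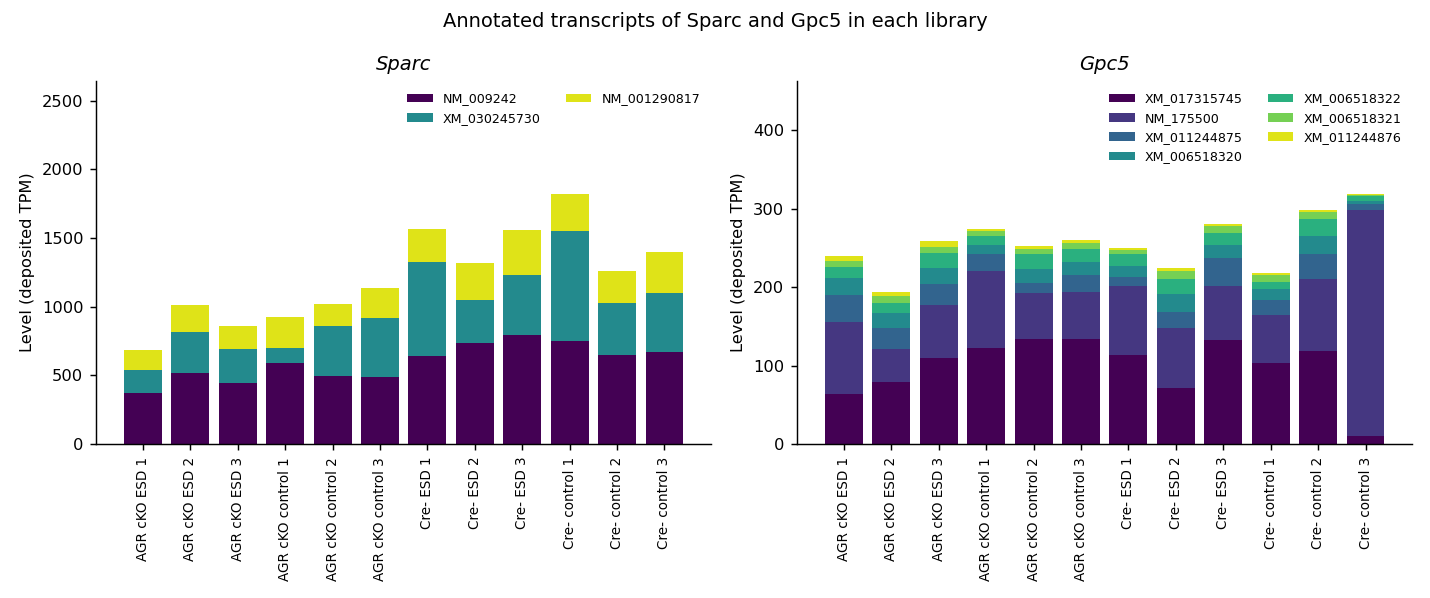
Deposited TPM of the annotated transcripts of Sparc (left) and Gpc5 (right), stacked in 1 bar per library. The NM_009242 part of Sparc is shorter in AGR cKO than in Cre- bars on average (442 and 527 against 723 and 689 TPM), and Cre- control 3 stands apart with 90.2% of Gpc5 in NM_175500.

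Separation from the dam called none of the 10 genes. In Cre- animals edgeR called 0 of 10, 0 reached an unadjusted p under 0.05 and 0 were free of overlap between groups, against 0%, 7.19% and 11.1% of all genes. DESeq2 and limma-trend on log2(TPM + 1) also called 0 of 10, against 0.152% and 0% of all genes. The Cre- comparison ranked Sparcl1 first among the 10, with a log2 fold change of 0.20 ± 0.13 (edgeR adjusted p = 0.750). In AGR cKO animals edgeR called 0 of 10 and 1 reached an unadjusted p under 0.05, against 0% and 7.58% of all genes. DESeq2 and limma-trend on log2(TPM + 1) also called 0 of 10 there, against 0.0998% and 0% of all genes. That gene was Chrdl1, with a log2 fold change of 0.44 ± 0.17 (edgeR adjusted p = 0.647) that was 0.25 ± 0.16 without AGR cKO ESD 1. Without overlap between AGR cKO ESD and AGR cKO control libraries, 0 of the 10 were higher and 1 lower, against 7.94% and 8.65% of all genes. The lower one was Thbs2, with a log2 fold change of -0.35 ± 0.19 (edgeR adjusted p = 0.725).

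Over both genotypes, Thbs1 and Thbs2 had the smallest p-values for separation. The log2 fold change of Thbs1 was -0.44 ± 0.17 (edgeR adjusted p = 0.451) and that of Thbs2 -0.30 ± 0.13 (edgeR adjusted p = 0.472), or -0.17 ± 0.10 without Cre- control 1. They were the 2 of 10 genes at an unadjusted p under 0.05, against 10.4% of all genes, and 0 of 10 and 0% of all genes were called by edgeR. No member was free of overlap between 6 ESD and 6 control libraries, as 0.459% of all genes were. The interaction of genotype and separation gave 0 of 10 genes called and 0 at an unadjusted p under 0.05, against 0% and 4.49% of all genes. Markers of mural cells and fibroblasts, which also express thrombospondins, had a median log2 fold change of -0.52 for separation over both genotypes, with 0 of 11 called and 6 lower at an unadjusted p under 0.05. In AGR cKO animals their median was -0.75 and that of neuronal markers -0.76, with 0 called in either list. Cre- animals had medians of -0.20 for mural and fibroblast markers and 0.21 for neuronal markers, with 0 of either list at an unadjusted p under 0.05. The part of these cells in the Thbs1 and Thbs2 values was not tested.

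Among 13 relatives of the 10 genes, the genotype averaged over conditions called 0 higher and 1 lower, where 1.55% of all genes were called higher and 1.94% lower. The lower one was Smoc2, a matrix protein of the SPARC family, at 1.69 ± 0.574 CPM in AGR cKO ESD, 1.04 ± 0.240 in AGR cKO control, 2.52 ± 0.951 in Cre- ESD and 3.12 ± 1.10 CPM in Cre- control libraries (log2 fold change -1.08 ± 0.25, edgeR adjusted p = 0.0413). No relative was called within ESD or within control animals, where 1.04% and 0.0157% of all genes were. The medians of the relatives there were 0.11 and 0.06, beside 0.00 and -0.01 over all genes. For separation 0 of 13 were called in either genotype, against 0% of all genes. Gpc2 had the smallest p in Cre- animals (log2 fold change -0.41 ± 0.11, edgeR adjusted p = 0.627).

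Among 23 receptors and partners, 2 rose and 0 fell with genotype over both conditions, against 1.55% and 1.94% of all genes. Nlgn2, a neuroligin of inhibitory synapses, stood at 159.5 ± 5.13 CPM in AGR cKO ESD, 156 ± 7.97 in AGR cKO control, 117 ± 4.55 in Cre- ESD and 129.6 ± 11.4 CPM in Cre- control libraries (log2 fold change 0.36 ± 0.05, edgeR adjusted p = 0.00762). It also rose within ESD (0.45 ± 0.08, edgeR adjusted p = 0.0310), where it was the 1 gene of 23 called, against 1.04% of all genes. Ptprs, a receptor phosphatase that binds glypicans, rose over both conditions (log2 fold change 0.37 ± 0.08, edgeR adjusted p = 0.0313). Within control animals and for separation 0 of 23 were called, against 0.0157% and 0% of all genes. Cacna2d1, the thrombospondin receptor subunit, had the smallest interaction p of the list and did not pass (edgeR adjusted p = 0.999). The median genotype log2 fold change of the list was -0.13 under ESD and 0.05 over both conditions, beside 0.00 and 0.00 over all genes.

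None of 8 BMP ligands and receptors, the pathway that chordin-like proteins oppose, was called in any of the 7 comparisons. Of all genes, 3.49% were called for genotype over both conditions, 1.04% under ESD and 0.0157% in control animals. For separation and the interaction 0% of all genes were called, so a list could hardly differ from them there. The smallest p for genotype under ESD was that of Bmp2, at 4.897 ± 0.396 CPM in AGR cKO ESD and 7.08 ± 1.69 CPM in Cre- ESD libraries (edgeR adjusted p = 0.281). Over both conditions 1 was higher and 1 lower at an unadjusted p under 0.05, against 20% of all genes in either direction, with a median of -0.04.

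Among 15 other factors by which astrocytes act on synapses, 2 rose and 2 fell with genotype over both conditions, against 1.55% and 1.94% of all genes. Ptn, encoding the growth factor pleiotrophin, rose to 3843 ± 386 CPM in AGR cKO ESD and 3469 ± 378 CPM in AGR cKO control libraries, against 2704 ± 403 CPM in Cre- ESD and 2355 ± 116 CPM in Cre- control libraries (log2 fold change 0.53 ± 0.09, edgeR adjusted p = 0.0145). Wnt7a, a secreted Wnt ligand, was higher in AGR cKO by 0.62 ± 0.13 on the log2 scale (edgeR adjusted p = 0.0244), and also within ESD (0.95 ± 0.18, edgeR adjusted p = 0.0369). It stood at 92.1 ± 5.52 CPM in AGR cKO ESD, 89.7 ± 3.1 in AGR cKO control, 47.7 ± 14.9 in Cre- ESD and 73.1 ± 6.77 CPM in Cre- control libraries. Cre- ESD was thus the low group, with a separation log2 fold change in Cre- animals of -0.62 ± 0.18 that was not called (edgeR adjusted p = 0.627). Lgi1, a secreted ligand of synaptic ADAM receptors, fell to 5.63 ± 1.69 CPM in AGR cKO ESD and 7.43 ± 1.29 CPM in AGR cKO control libraries, against 16.7 ± 7.16 CPM in Cre- ESD and 17.2 ± 3.07 CPM in Cre- control libraries (log2 fold change -1.39 ± 0.21, edgeR adjusted p = 0.00802). Mertk, an engulfment receptor placed in the list for synapse removal, fell with a log2 fold change of -0.86 ± 0.12 (edgeR adjusted p = 0.00662). Within ESD 1 rose (Wnt7a) and 2 fell (Mertk and Lgi1), against 0.584% and 0.459% of all genes. Within control animals and for separation 0 of 15 were called, against 0.0157% and 0% of all genes. The median of the list was 0.03 over both conditions and -0.01 under ESD, beside 0.00 and 0.00 over all genes.

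With 1 library left out in turn, Nlgn2, Lgi1 and Mertk were called for genotype over both conditions in 12 of 12 fits. Ptn was called in 11 of 12, and not without AGR cKO control 2 (edgeR adjusted p = 0.0556). Wnt7a was called in 7 of 12 and Ptprs and Smoc2 in 3 of 12 each, so these calls depended on single libraries. Under ESD, Nlgn2 and Wnt7a were called in 4 of 12 fits, Mertk in 3 and Lgi1 in 2. No sign changed in any of these fits. With the microglial and endothelial covariates none of these list genes was called, and the log2 fold change of Ptn over both conditions was 0.26, that of Ptprs 0.20 and that of Lgi1 -0.82.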

How the data were processed

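Groups were taken from the sample titles. Genotype entries of the labels number Nr3c1 and the transgene upward with the replicate, which was not followed. Column names hold "cre_M" and "cre_P", taken to mean Cre minus and Cre plus. The authors deposited whole-number read counts per gene and per transcript. FPKM values, scaled by length and library size, stand beside them per the file headers. The authors deposited TPM values as well, which were used for levels between genes and for transcripts, and FPKM gave the same order of the 10 genes. Per the submitters' processing notes, Trimmomatic, HISAT2 2.1.0, HISAT, Bowtie2, StringTie 1.3.4b, DESeq2 and build mm10 were used, with no role or order given. Per the labels' protocols, 1 µg RNA with an integrity number over 7.0 entered a stranded mRNA kit. How the authors made whole counts, and whether strand was used, is not given in the sources used here.

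With edgeR 4.0.16 (R 4.3.3), 19163 genes passed filterByExpr, and their counts were scaled with TMM factors and fitted with the quasi-likelihood test, 1 mean per group over 12 libraries (8 residual degrees of freedom). Tests were two-sided, p-values were adjusted over the 19163 genes by Benjamini-Hochberg, and calls needed an adjusted p under 0.05. Errors of log2 fold changes are standard errors, CPM values are TMM-scaled, and intervals cover 95%. The labels do not say that libraries came from separate animals, so p-values measure only the spread between these samples, which may be technical. With 3 against 3, an exact permutation test cannot go below 0.1. The members and lists were chosen with earlier results of these data known. The 4 pathway lists hold 59 symbols and the 8 marker lists 76, and 133 symbols were tested. All members are named, with up to 4 called genes per pathway list and comparison, otherwise the 1 with the smallest p, and the 3 genes most like the called member. Some of these genes are given by count only. Alternatives were DESeq2 1.42.0, limma 3.58.1 (limma-trend) on log2(TPM + 1) and log2(TPM + 0.1), other scalings and filters, a replicate block, marker covariates and single libraries left out. The fitting code was tested on simulated data.

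Of the marker lists not described with the results, neurons had a median genotype log2 fold change of -0.49 under ESD and 0.48 in control animals. In either 0 of 12 were called, against 1.04% and 0.0157% of all genes. The summed level of the neuronal markers did not overlap between genotypes in either condition, at 114 to 141 CPM in AGR cKO ESD, 158 to 167 in AGR cKO control, 149 to 175 in Cre- ESD and 109 to 148 CPM in Cre- control libraries. Over both conditions the median was 0.01 for neurons, and oligodendrocyte precursors had -0.49 with 0 of 5 called, oligodendrocytes 0.07 with 0 of 5 tested, and ependyma and choroid plexus -0.59 with 3 of 6 called, all lower. Of all genes, 3.49% were called there and 1.94% were called lower. All 8 marker lists had 0 genes called for separation in either genotype, against 0% of all genes.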

Additional observations from a re-analysis of the deposited data

How the results depend on the processing

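The number of the 10 genes called for genotype under ESD, 1 in the reported fit, was 2 with DESeq2 and 0 with the marker covariates, with limma-trend on log2(TPM + 1) with or without the filter, with only the groups compared, and without both Cre- control 1 and AGR cKO ESD 1. Of all genes, 1.04% were called in the reported fit, 4.73% by DESeq2, 0% with the covariates or only the groups compared, 0.741% and 0.17% by limma-trend with and without the filter, and 0.149% without both libraries. The count among the 10 ran from 0 to 2 when 1 library was left out. In control animals it was 1 with DESeq2, which called 1.67% of all genes. Over both conditions it was 2 with DESeq2, 0 with the covariates, 2 at an adjusted p under 0.1 and 1 to 2 when 1 library was left out. Of all genes, 9.77% were called there by DESeq2, 0% with the covariates and 7.74% at 0.1, against 3.49% in the reported fit. Counts for separation and the interaction stayed at 0 under all settings run. Only the groups compared could not be run for the interaction and the averages. Some differences that were not called changed sign, and the cause was not tested. With the covariates these were, as log2 fold changes, Thbs1 (-0.27), Gpc4 (-0.049) and Gpc5 (0.059) for genotype in control animals, Thbs1 (-0.35) for genotype over both and Gpc4 (0.007) for separation over both. The Gpc6 interaction was 0.002 in 3 limma settings. Without both named libraries, separation gave 0.014 for Thbs2 in Cre-, 0.10 for Thbs4 and -0.10 for Gpc4 in AGR cKO, and 0.027 for Thbs4 and 0.014 for Sparc over both. Genotype in control animals gave 0.15 for Thbs2, and the interaction gave 0.22 for Thbs3, 0.15 for Thbs4, -0.034 for Gpc4 and 0.10 for Gpc5. With 1 library left out, genotype in control animals ran from -0.042 to 0.16 for Chrdl1, -0.23 to 0.061 for Gpc5, -0.074 to 0.34 for Thbs1 and -0.28 to 0.15 for Thbs2. Genotype under ESD ran from -0.16 to 0.035 for Gpc5, -0.24 to 0.13 for Thbs1 and -0.011 to 0.38 for Thbs3, and genotype over both from -0.056 to 0.15 for Thbs1. The interaction ran from -0.022 to 0.17 for Gpc4, -0.14 to 0.15 for Gpc5, -0.10 to 0.11 for Gpc6, -0.14 to 0.013 for Sparcl1, -0.38 to 0.035 for Thbs1, -0.36 to 0.075 for Thbs2, -0.29 to 0.12 for Thbs3 and -0.27 to 0.12 for Thbs4. Separation in AGR cKO ran from -0.10 to 0.082 for Gpc4, -0.14 to 0.066 for Gpc5, -0.16 to 0.047 for Gpc6, -0.093 to 0.29 for Thbs3 and -0.28 to 0.11 for Thbs4. Separation in Cre- ran from -0.20 to 0.093 for Gpc5, -0.017 to 0.16 for Sparc, -0.42 to 0.013 for Thbs2 and -0.10 to 0.10 for Thbs4, and over both from -0.12 to 0.022 for Gpc5 and -0.15 to 0.048 for Thbs4. With the replicate block the log2 fold change of Sparc was -0.80 under ESD (edgeR adjusted p = 0.0377), -0.51 in control animals (0.237) and -0.66 over both conditions (0.0111), and the block changed no call among the 10 genes. Of the list genes called, only Smoc2 lost its call with it (-1.05, edgeR adjusted p = 0.0566). Over all genes it gave 244 calls under ESD against 200 without it, and 799 over both conditions against 668. The labels give samples with the same number nothing else in common, so they were not treated as pairs. Their deviations correlated at a median of 0.04 over 18 pairs (-0.10 to 0.23), with 7 above 0.1, against 4 of 36 pairs with different numbers. A library correlated best with its own number in 17 of 36 cases, each a choice among 3. Whether samples with the same number shared a batch was not tested beyond these values and the block.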
